A study of Homo sapiens with 6 samples.

Results

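The 10 genes HSPD1, HSPE1, HSPA9, GRPEL1, TRAP1, LONP1, CLPP, CLPX, YME1L1 and HTRA2 encode the main chaperones and quality control proteases of human mitochondria. They were chosen by name from the table of loci that the authors deposited, out of 24166 genes with a summed value in the assemblies, and 9 of them passed the minimum mean of 1 FPKM that 13162 genes passed. FPKM is the number of sequenced fragments scaled by the length of a transcript and by the number of mapped fragments, so that levels of different genes can be set side by side. The exception was HTRA2, which was listed at 0 FPKM in all 6 libraries.

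Total RNA of HEK293 cells, an adherent human line derived from embryonic kidney, was depleted of ribosomal RNA and sequenced from 3 control and 3 heat shocked samples, with 1 library each. All cells were grown at 37°C. During passaging, aliquots of cells were moved to tubes, and those of the heat shock group spent 30 minutes in water at 45°C, whereas the control group was left untreated, and the study places the collection of RNA 30 minutes after the heat shock. No source states that the 3 samples of a group came from separate cultures, so that the p-values measure the spread between these samples. FPKM gives a share of the sequenced RNA and not an amount per cell. It cannot be told apart here whether a lower share reflects fewer cells that hold a transcript or less of it per cell. The question that the comparison answers is whether the transcripts of the mitochondrial chaperones and proteases had a different level in heat shocked than in control cells.

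Most mitochondrial proteins are made in the cytosol and cross the mitochondrial membranes unfolded. In the matrix they are pulled in and held by mitochondrial HSP70 (HSPA9, with its nucleotide exchange factor GRPEL1), folded in the barrel of HSP60 (HSPD1) under the lid of HSP10 (HSPE1), and degraded by the ATP-driven proteases LONP1 and CLPXP (CLPX and CLPP), while YME1L1 works in the inner membrane and HTRA2 in the space between the membranes. Several of these genes are known targets of the mitochondrial unfolded protein response, and HSPD1 and HSPE1 lie head to head and share a promoter that is known to be bound by the heat shock factor HSF1.

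The shared promoter is shown because the heat shock factor binds inverted repeats of the unit GAA. In the annotation of the assemblies (hg19), HSPE1 started at chr2:198364721 on the plus strand and the HSPD1 transcript NM_002156 started at position 198364640 on the minus strand, with 80 bases between them. A run of 18 bases at chr2:198364792-198364809 held 3 overlapping cores, searched as GAANNTTC and TTCNNGAA, patterns that read the same on both strands. The run lay 152 bases before the start of NM_002156, in an exon of the annotated HSPE1 transcript 71 bases past its start, and between exons of the second annotated HSPD1 transcript, NM_199440. In the sequences that follow, the capitals mark these cores, and a stretch from the promoters of 3 cytosolic heat shock genes, chosen because it holds a core, is printed beside them. Of the 3 windows of DNAJB1, the one shown held 2 cores, of which the one nearer the start is printed, and the other windows held 1 and 0, while the single window of HSPH1 held 0. All 4 printed sequences were read from RefSeq promoter windows (GRCh38.p14, 250 bases before to 50 after a start), and the HSPD1 run was found once in chromosome 2 of GRCh37, at chr2:198364786-198364814.
HSPD1 (GRCh38.p14 chr2:197500062-197500090, minus strand): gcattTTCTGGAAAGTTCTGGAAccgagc
HSPA1A (chr6:31815427-31815454, plus strand): gaaaaccctgGAATATTCccgacctggc
HSPA1B (chr6:31827623-31827650, plus strand): gaaacccctgGAATATTCccgacctggc
DNAJB1 (chr19:14518427-14518454, minus strand): gcgggctctgGAAGCTTCcgccggacgg

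A core was found in 4737 of the 35116 promoter windows in the RefSeq table (13.5%), and 2 or more in 601 windows (1.71%). Of the members, 7 had 10 windows in the table, and CLPP, GRPEL1 and YME1L1 had none. A core was found in 1 window of HSPD1 and in the window of HSPA9. The HSPE1 window of this table began past the 3 cores and held none, since the table places the start of HSPE1 further downstream than the annotation of the assemblies does.

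The libraries differed by a common factor that moved nearly every abundant gene, and the groups were compared with it and without it. Taken from the 1006 genes that exceeded 10 FPKM in every library, it was 0.948, 0.439 and 0.967 in control 1 to 3. It was 2.15, 2.34 and 0.4925 in heat shock 1 to 3. Control 2 and heat shock 3 thus stood apart from the other libraries of their own groups. Heat shock 3 resembled control 1 and 2 in its number of assembled transcripts without a strand. This number was 141632 to 194489 in these 3 libraries and 17304 to 45600 in the other 3. The files give depth no more directly than as coverage per FPKM, which spanned 2.03-fold over the 6 libraries and was lowest in control 3. Of the 7 markers of HEK293 cells, 6 passed the minimum FPKM and LHX1 did not. Of the markers of blood, fibroblast, liver and endothelial cells, PTPRC, CD3E, HBB, COL3A1, DCN, ALB and PECAM1 did not pass it either. COL1A1 passed it and reached at most 4.16 FPKM as deposited and 7.88 FPKM scaled, in control 2. Its deposited means in control and heat shock were 3.76 and 3.49 FPKM. Those of the HEK293 markers included lower ones, such as PAX2 (1.75 and 1.81 FPKM), and higher ones, such as VIM (175.7 and 525.4 FPKM). Each member is therefore given as deposited and scaled, that is, with its FPKM divided by the factor.

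**Figure D1:**
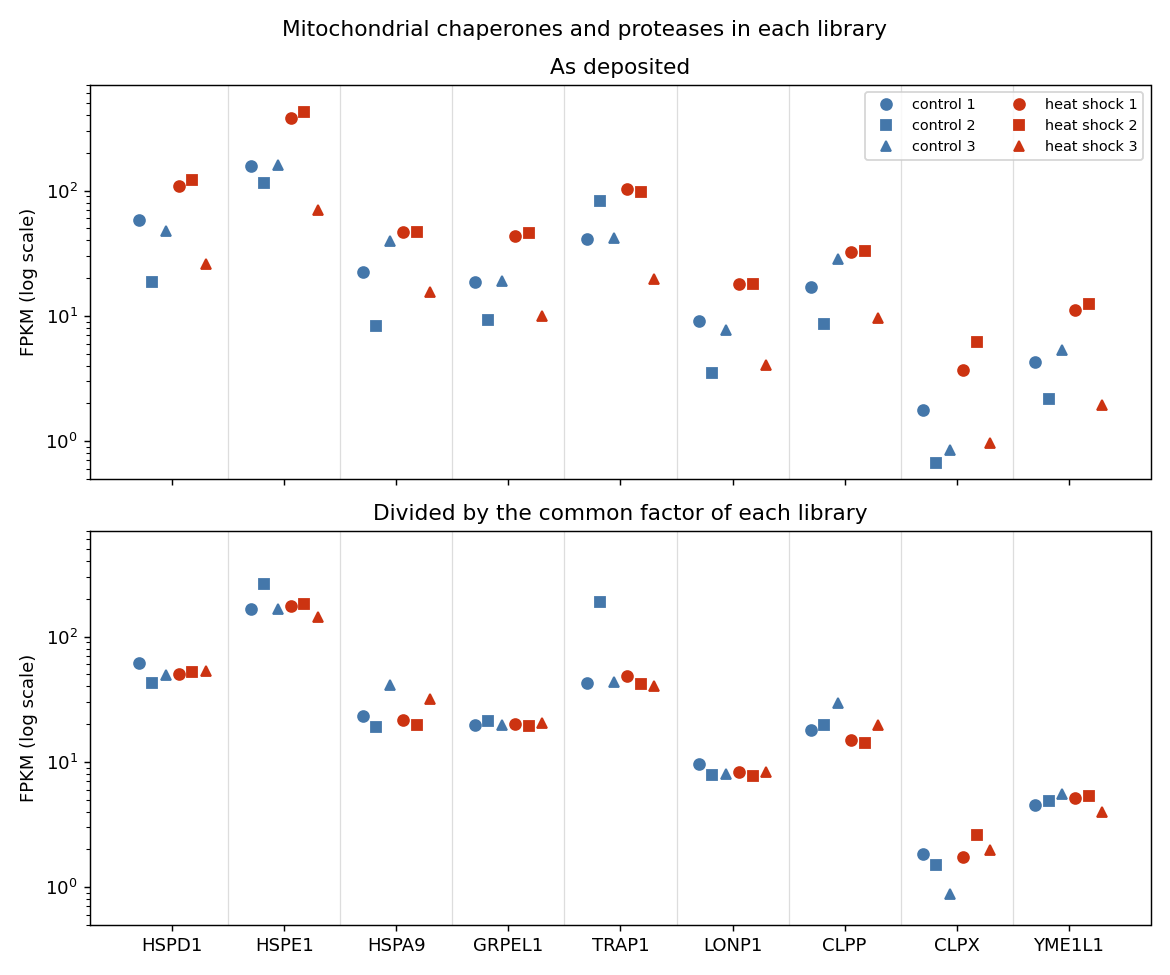
FPKM of the 9 members listed above 0 in each of the 6 libraries, on a log axis, as deposited (top) and scaled by each library's common factor (bottom). Points are single libraries, blue for control and red for heat shock. As deposited, heat shock 1 and 2 lie above the other libraries for each gene, and heat shock 3 lies among or below the controls. After scaling, the 6 points of HSPD1, GRPEL1 and LONP1 lie close together, and TRAP1 and HSPE1 have a high point in control 2.

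HSPD1, the HSP60 chaperonin, had 58.4, 18.7 and 47.4 FPKM in control 1 to 3 and 108.6, 121.7 and 26.0 FPKM in heat shock 1 to 3. Heat shock 1 and 2 were thus above all controls, and heat shock 3 lay within their range. The 95% interval that Cufflinks gave for each library was narrower than this spread, 24.2 to 27.9 FPKM in heat shock 3 and 104.4 to 112.9 FPKM in heat shock 1. The log2 fold change as deposited was 0.90 ± 0.96 (SE, n = 3 per group), with a limma adjusted p = 0.707. Scaled, HSPD1 had 61.6, 42.6 and 49.0 FPKM in the control libraries and 50.5, 52.0 and 52.9 FPKM in the heat shock libraries. The 3 scaled heat shock values all lay inside the control range, and the log2 fold change was 0.04 ± 0.15 (SE, n = 3) with a 95% interval of -0.34 to 0.41 and a limma adjusted p = 0.962. All of the FPKM came from NM_002156 in each library, and NM_199440, which starts further upstream, was listed at 0 in all 6.

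HSPE1, the HSP10 lid of the chaperonin, was the most abundant member. It had 158.3, 115.9 and 160.8 FPKM in the controls and 379.8, 427.4 and 70.7 FPKM in the heat shock libraries. As for HSPD1, heat shock 1 and 2 were above the controls, but heat shock 3 was here below all of them. The log2 fold change was 0.65 ± 0.97 as deposited and -0.22 ± 0.21 after scaling (SE, n = 3), with limma adjusted p-values of 0.733 and 0.907. Control 2 differed from the other libraries in how its reads were assembled: an assembled transcript of 581 bases held 88.0 FPKM of its sum, against 27.9 FPKM on the annotated transcript of 953 bases. The scaled values of 167.0, 263.9 and 166.3 FPKM in the controls and 176.5, 182.4 and 143.6 FPKM in heat shocked cells therefore contain 1 library in which a short transcript counts for more than its length. With each transcript weighted by its length relative to the longest annotated one, control 2 came to 185.8 FPKM and the scaled log2 fold change to -0.05 ± 0.11 (SE, n = 3; limma adjusted p = 0.906). Counted without the assembled transcript, the scaled value was 0.46 (log2), the opposite sign, and its side of the threshold was the same.

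HSPA9, mitochondrial HSP70 or mortalin, had 22.2, 8.29 and 39.8 FPKM in the controls and 46.6, 46.4 and 15.7 FPKM in the heat shock libraries. Its groups overlapped, with heat shock 3 below control 1 and 3. In control 3 and heat shock 3, transcripts assembled over the end of the gene took 86.8% and 75.9% of the sum, and the scaled values of these libraries, 41.2 and 31.8 FPKM, were the highest of the 6. The other 4 libraries lay between 18.9 and 23.5 FPKM after scaling. The scaled log2 fold change was -0.14 ± 0.33 with transcripts summed and -0.05 ± 0.11 with transcripts weighted by length (SE, n = 3; limma adjusted p = 0.938 and 0.911).

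GRPEL1, which exchanges the nucleotide on HSPA9, had 18.6, 9.28 and 19.0 FPKM in the controls and 43.5, 45.6 and 9.98 FPKM in the heat shock libraries. Of all members it differed least between libraries after scaling, with 19.6, 21.1 and 19.6 FPKM in the controls and 20.2, 19.5 and 20.3 FPKM in heat shocked cells, a 1.08-fold range over the 6 libraries (highest over lowest). The 2 groups overlapped, and the log2 fold change was -0.01 ± 0.12 (SE, n = 3), with a 95% interval of -0.30 to 0.28 and a limma adjusted p = 0.986.

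TRAP1, the mitochondrial relative of HSP90, had 40.8, 83.1 and 42.2 FPKM in the controls and 103.7, 98.3 and 19.9 FPKM in the heat shock libraries. It had the lowest log2 fold change as deposited, 0.17 ± 0.96 (SE, n = 3, limma adjusted p = 0.921). This value depended on several libraries, and was 0.93 without heat shock 3 and -0.23 without heat shock 1. In control 2, 78.4 of the 83.1 FPKM lay on an assembled transcript of 560 bases at the end of the gene. Without control 2 the deposited log2 fold change was 0.50 and the scaled one -0.00057, against -0.70 ± 0.59 (SE, n = 3) in all libraries. Weighted by length and scaled, TRAP1 had 40.6, 54.3 and 41.9 FPKM in the controls and 45.8, 39.9 and 38.5 FPKM in heat shocked cells, which overlapped. In the 5 libraries other than control 2, the annotated transcript NM_001272049 held 59.4% to 78.7% of TRAP1 and NM_016292 the rest.

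Of the matrix proteases, LONP1, which degrades oxidized and misfolded matrix proteins, had 9.10, 3.47 and 7.67 FPKM in the controls and 17.9, 18.0 and 4.08 FPKM in the heat shock libraries. Scaled, it had 9.61, 7.91 and 7.93 FPKM in the controls and 8.31, 7.70 and 8.29 FPKM in heat shocked cells, and the groups overlapped (log2 fold change -0.05 ± 0.17, SE, n = 3; limma adjusted p = 0.952). The shares of its 4 annotated transcripts varied among the replicates of both groups: NR_076392, annotated as non-coding, held 30.4%, 49.3% and 100% of LONP1 in the controls and 71.2%, 87.5% and 0% in heat shocked cells.

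CLPP, the peptidase of CLPXP, had 16.9, 8.60 and 28.6 FPKM in the controls and 32.2, 33.2 and 9.66 FPKM in the heat shock libraries. It shared its locus in the table of loci with ALKBH7, which lies next to it, and 26.0% to 88.5% of its sum lay on assembled transcripts in every library except heat shock 2. The scaled log2 fold change was -0.41 ± 0.24 (SE, n = 3), with a 95% interval of -1.004 to 0.17 and a limma adjusted p = 0.907. On annotated transcripts alone it was 0.86, so that the sign of the CLPP value rested on the assembled transcripts.

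CLPX, the unfoldase that feeds CLPP, was the least abundant of the 9 members above 0. It had 1.75, 0.66 and 0.85 FPKM in the controls and 3.72, 6.15 and 0.96 FPKM in the heat shock libraries, and it had the highest log2 fold change of the members both as deposited (0.99 ± 0.53) and scaled (0.37 ± 0.29; SE, n = 3). Its scaled values were 1.85, 1.51 and 0.88 FPKM in the controls and 1.73, 2.62 and 1.96 FPKM in heat shocked cells, so that heat shock 1 lay within the control range. The limma adjusted p-values were 0.707 and 0.907. Part of its FPKM in heat shock 1 and 2, 30.3% and 71.8%, lay on assembled transcripts that cover the end of the gene, and on annotated transcripts alone the scaled log2 fold change was -0.07.

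YME1L1, the ATP-driven protease of the inner membrane, had 4.31, 2.15 and 5.32 FPKM in the controls and 11.04, 12.6 and 1.94 FPKM in the heat shock libraries. Its scaled values of 4.55, 4.88 and 5.50 FPKM in the controls and 5.13, 5.36 and 3.95 FPKM in heat shocked cells overlapped, with a log2 fold change of -0.05 ± 0.21 (SE, n = 3; limma adjusted p = 0.963). Assembled transcripts held 68.7% and 90.2% of its sum in control 2 and 3 and 77.2% and 77.3% in heat shock 1 and 2. They held 0% in control 1 and heat shock 3.

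As a group, none of the 9 tested members passed the limma test at an adjusted p-value under 0.05 in either direction or on either scale. As deposited, 0.0152% of the 13162 genes were called higher and 0.0076% lower, and scaled, 0% in both directions (lowest adjusted p = 0.163). At an unadjusted p-value under 0.05, 1.99% of all genes were higher and 1.69% lower as deposited, and 0.745% and 2.49% scaled, and again 0 members were among them. The groups did not overlap for 0 members in either direction, against 3.77% of all genes higher and 2.23% lower as deposited, and 1.94% and 5.45% scaled. As deposited, the log2 fold change was above 0 for 9 of 9 members, as it was for 72.9% of all genes, with a median of 0.73 (0.17 to 0.99) against 0.45 for all genes. After scaling it was above 0 for 2 members and below 0 for 7, with a median of -0.05 (-0.70 to 0.37) against -0.21 for all genes, of which 27.8% were above 0. With transcripts weighted by length, the scaled median was -0.06 and the range narrowed to -0.26 to 0.28.

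The size of the deposited values depended on heat shock 3 and on control 2. Without heat shock 3, the log2 fold changes of the members ran from 0.93 (TRAP1) to 1.60 (HSPD1). Their limma adjusted p-values ran from 0.0745 (CLPX and YME1L1) to 0.201 (CLPP), so that still none was called. After scaling, leaving out heat shock 3 kept the members between -0.64 (TRAP1) and 0.43 (CLPX). Without control 2, the deposited values ran from -0.0023 (CLPP) to 0.84 (CLPX), with 0.41 for HSPD1 and 0.12 for HSPA9. Only that of TRAP1 rose, to 0.50.

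The members differed from each other in level far more than between groups. Over the 6 libraries, with transcripts weighted by length and scaled, the mean was 170.3 FPKM for HSPE1, 51.4 for HSPD1, 43.5 for TRAP1, 21.6 for HSPA9, 20.8 for GRPEL1, 20.6 for CLPP, 7.60 for LONP1, 3.97 for YME1L1 and 1.65 for CLPX. The ranges over libraries did not overlap between HSPE1 and HSPD1, between TRAP1 and HSPA9, or between each of CLPP, LONP1, YME1L1 and CLPX and the next in this order. They overlapped between HSPD1 and TRAP1, and among HSPA9, GRPEL1 and CLPP, whose order is therefore not settled. With transcripts summed instead, the scaled mean of TRAP1 (67.7 FPKM) was above that of HSPD1 (51.4 FPKM). TRAP1 then ran from 40.3 to 189.2 FPKM. This overlapped the ranges of HSPE1 (lowest 143.6 FPKM) and HSPA9 (highest 41.2 FPKM), so that the place of TRAP1 depended on the weighting. The chaperones were thus above the proteases except CLPP, which reached the level of HSPA9 and GRPEL1.

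**Figure D2:**
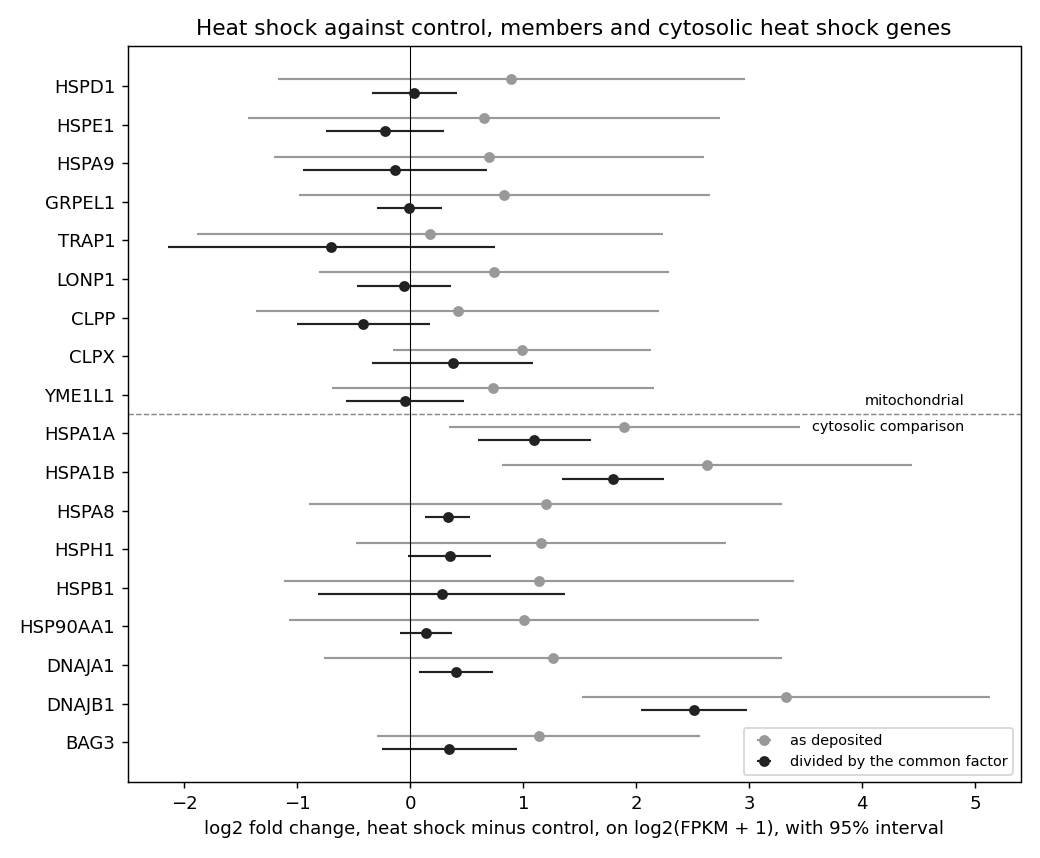
log2 fold change of heat shock against control on log2(FPKM + 1), as deposited (grey) and scaled (black), for the 9 tested members and for 9 cytosolic heat shock genes. Points are limma estimates and bars their 95% intervals, with 3 libraries per group. All intervals of the members include 0 on both scales, while those of DNAJB1, HSPA1B, HSPA1A, DNAJA1 and HSPA8 lie above 0 after scaling, although the adjusted p-values of these genes did not pass the threshold either.

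The cytosolic heat shock genes were read in the same libraries for comparison. Of a list of 10, 9 were tested (HSPA6 was below the minimum FPKM) and 0 were called on either scale, but after scaling 9 of 9 had a log2 fold change above 0, with a median of 0.35, 5 had an unadjusted p-value under 0.05 in limma (background 0.745%), and 6 had heat shock values all above the control values (background 1.94%). DNAJB1, a cochaperone of cytosolic HSP70, had 7.72, 11.02 and 9.49 scaled FPKM in the controls and 56.2, 49.6 and 69.0 in heat shocked cells, a log2 fold change of 2.51 ± 0.19 (SE, n = 3; limma adjusted p = 0.163). All 3 heat shock libraries, heat shock 3 included, were above all controls for this gene. With transcripts weighted by length, its scaled log2 fold change was 1.95 ± 0.26 (SE, n = 3; limma adjusted p = 0.576), and the groups again did not overlap. HSPA1A, inducible HSP70, whose copy HSPA1B is nearly identical so that their reads cannot be told apart with certainty, had 5.27, 7.72 and 4.98 scaled FPKM in the controls and 13.9, 13.4 and 14.0 in heat shocked cells. HSPH1, the exchange factor of cytosolic HSP70, had 10.5, 10.0 and 9.17 scaled FPKM in the controls and 13.2, 11.97 and 13.5 in heat shocked cells, with groups that did not overlap. The 95% interval of its scaled log2 fold change, -0.017 to 0.71, included 0. A test of the difference between this list and the mitochondrial members was not run.

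A ratio of 2 partners within a library is free of the common factor, and 6 such ratios were compared with a two-sided exact permutation test, whose smallest possible p with 3 libraries against 3 is 0.1, so that none could pass 0.05. HSPE1/HSPD1, lid to barrel of the chaperonin, was 2.71, 6.20 and 3.395 in the controls and 3.50, 3.51 and 2.72 in heat shocked cells. The heat shock values lay inside the control range, and the difference of the mean log2 ratios was -0.26 (exact p = 0.9, adjusted 0.9). HSPD1/LONP1, chaperonin to protease, was the least variable of the ratios, with 6.41, 5.38 and 6.18 in the controls and 6.07, 6.75 and 6.38 in heat shocked cells (difference 0.10 on the log2 scale, exact p = 0.5, adjusted 0.9). CLPX/CLPP, unfoldase to peptidase, differed most, with 0.104, 0.0771 and 0.0298 in the controls and 0.116, 0.185 and 0.0998 in heat shocked cells. Its difference was 1.05 on the log2 scale (exact p = 0.2, adjusted 0.9), the groups overlapped, and on annotated transcripts alone it was -1.13. The differences of GRPEL1/HSPA9 (0.13), TRAP1/HSPA9 (-0.57) and YME1L1/LONP1 (0.0038) had exact permutation p-values of 0.8 to 0.9. With transcripts summed, GRPEL1/HSPA9 was 0.837, 1.12 and 0.476 in the controls and 0.934, 0.983 and 0.637 in heat shocked cells. With transcripts weighted by length, it was 0.933, 1.21 and 0.829 in the controls and 0.932, 0.983 and 0.959 in heat shocked cells. The ratio HTRA2/LONP1 was not computed, as HTRA2 was at 0.

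**Figure D3:**
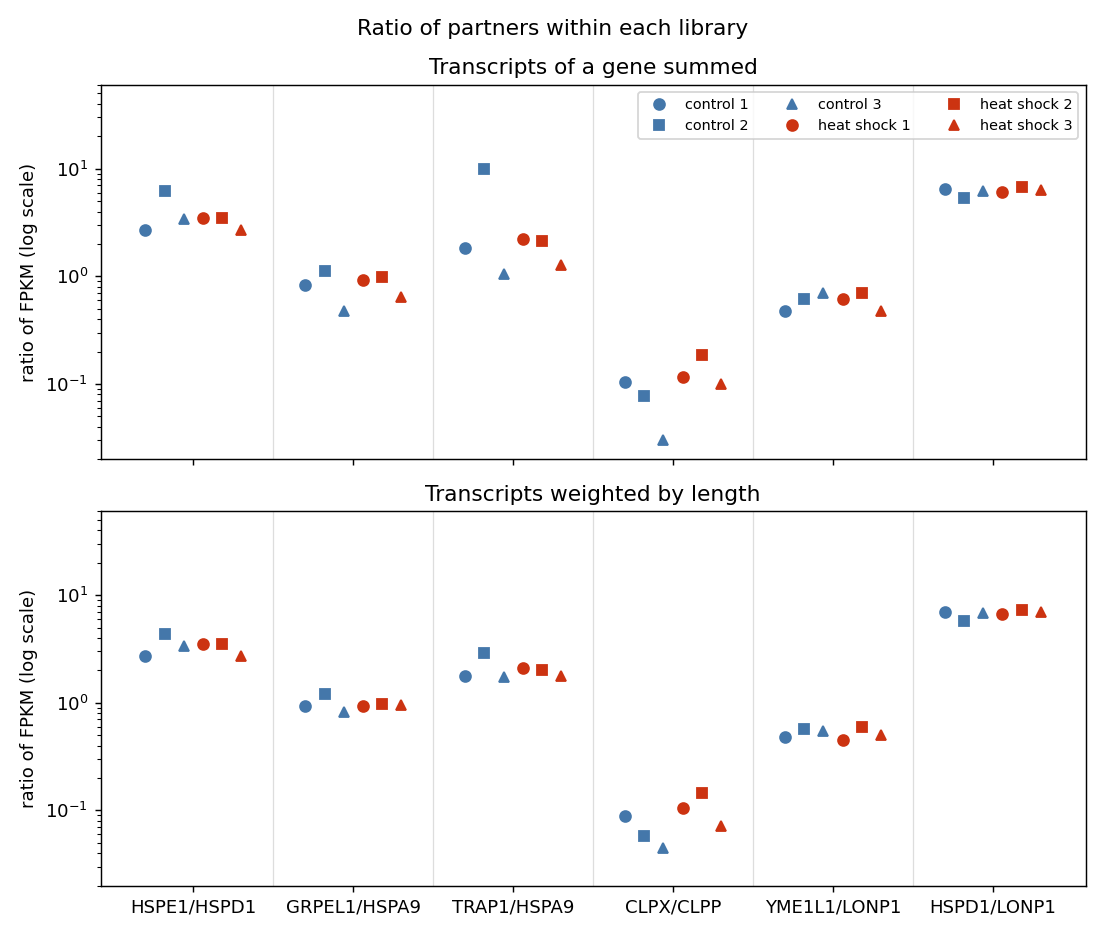
Ratio of the FPKM of partners within each library, on a log axis, with the transcripts of a gene summed (top) or weighted by length (bottom). Points are single libraries, blue for control and red for heat shock. The groups overlap for each ratio, HSPD1/LONP1 stays between 5.38 and 6.75 in the upper panel, and the high control 2 points of HSPE1/HSPD1 and TRAP1/HSPA9 are lower in the lower panel.

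**Figure D4:**
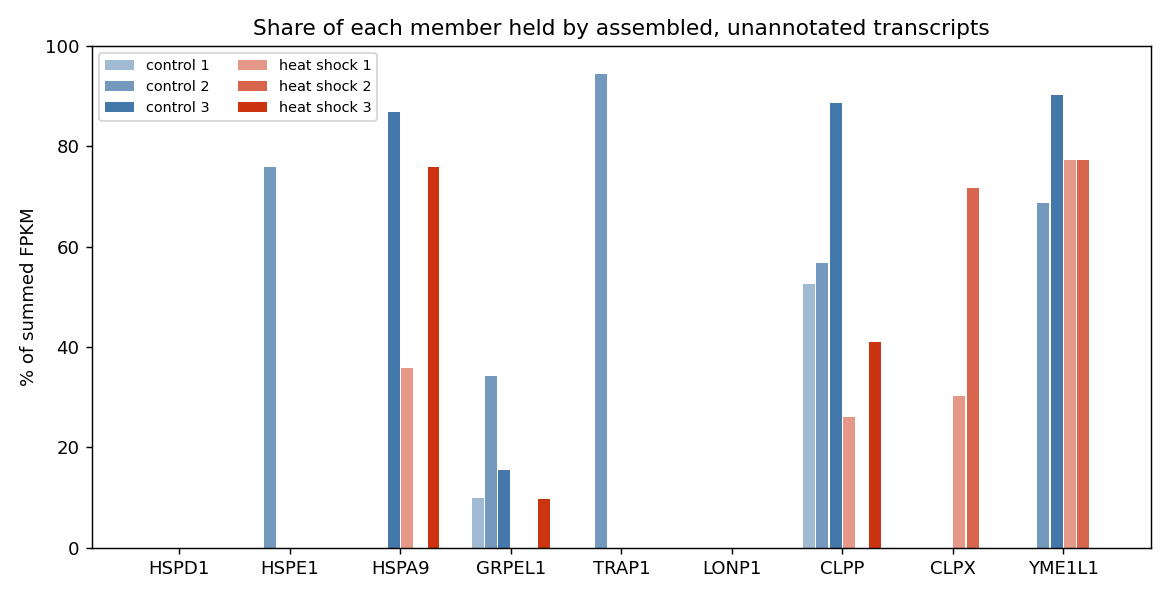
Share of the summed FPKM of each member that lies on assembled transcripts outside the annotation, in percent, for each library (blue control, red heat shock, darker shades for higher replicate numbers). HSPD1 and LONP1 are at 0% in all libraries, whereas TRAP1 reaches 94.3% and HSPE1 75.9% in control 2 alone. CLPP and YME1L1 have shares above 0 in both groups, but CLPP is at 0% in heat shock 2, and YME1L1 in control 1 and heat shock 3.

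The share of assembled transcripts differed between the members. A share of 0% did not mean a stable division among annotated transcripts, as those of LONP1 varied between libraries. The assembled share was 0% in all libraries for HSPD1 and LONP1, was above 0 in control 2 alone for HSPE1 and TRAP1, and reached 34.2% for GRPEL1, 71.8% for CLPX, 86.8% for HSPA9, 88.5% for CLPP and 90.2% for YME1L1.

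HTRA2, the serine protease between the membranes, was listed at 0 FPKM in all 6 libraries for both of its annotated transcripts, although the pooled table of the authors gave its locus a value in both groups. On hg19 it lies at chr2:74756532-74760683 on the plus strand, overlaps AUP1 on the minus strand by 443 bases at its start and LOXL3 on the minus strand by 738 bases at its end. Cufflinks listed no transcript of a bundle above 0 at a share under 10% of the bundle (0 such transcripts in each library). AUP1 had 20.4, 11.2 and 23.9 FPKM in the controls and 55.0, 49.9 and 27.3 FPKM in heat shocked cells. Single-exon transcripts on the minus strand, grouped with LOXL3, ran over the last part of HTRA2 in control 1 (6.29 FPKM), control 3 (10.4 FPKM) and heat shock 1 (16.9 FPKM), with 1556, 1101 and 1394 bases inside the bounds of HTRA2. A listing at 0 in the assemblies is thus not taken as an absence of the RNA, as the pooled table gives the same locus a value. Whether fragments of AUP1 or LOXL3 entered that pooled value was not tested. HTRA2 was not compared between the libraries, and only its pooled values are described below.

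**Figure D5:**
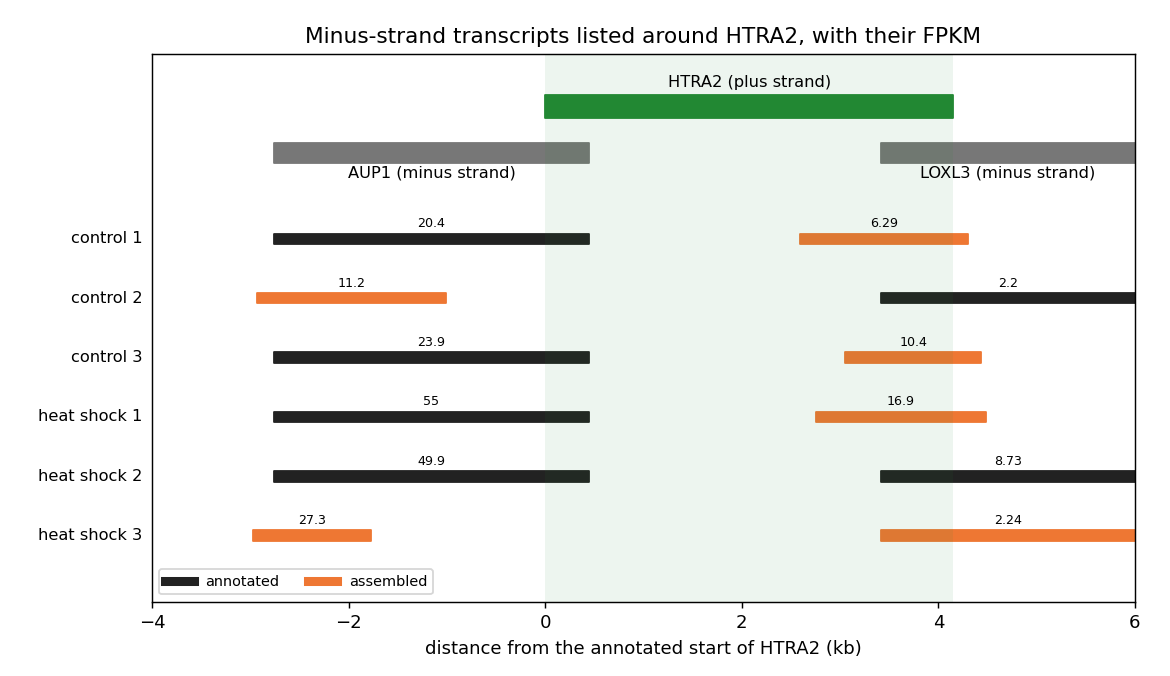
Transcripts of AUP1 and LOXL3 on the minus strand listed above 0 around HTRA2 in each library, by their distance in kb from the annotated start of HTRA2, whose bounds are shaded. Numbers are FPKM, black bars are annotated and orange bars assembled transcripts, and bars are cut at the edges of the plot. Assembled transcripts of 6.29, 10.4 and 16.9 FPKM lie over the end of HTRA2 in control 1, control 3 and heat shock 1.

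The pooled FPKM of the authors' table, 1 value per group with no spread, was higher after heat shock for all 10 loci. It was 51.8 and 219.7 for HSPD1 in the control and heat shock columns, 23.0 and 92.9 for HSPA9, 19.8 and 93.1 for GRPEL1, 44.7 and 227.1 for TRAP1, 9.32 and 43.1 for LONP1, 1.41 and 8.14 for CLPX, 4.37 and 17.5 for YME1L1 and 1.63 and 5.80 for HTRA2. HSPE1 was joined there with MOB4 and the read-through HSPE1-MOB4 (256.7 and 1282 FPKM), both of which were at 0 in all 6 assemblies, and CLPP with ALKBH7 (29.8 and 136.4). The ratios of heat shock to control ran from 3.56 (HTRA2) to 5.77 (CLPX), and the median over the 4181 named loci with at least 5 FPKM in the control column was 4.32 (5th to 95th percentile 1.665 to 5.22). The members thus lay around the ratio of the table as a whole, and 9 of the 10 lay within those percentiles, with CLPX above them. CLPX, YME1L1 and HTRA2 were themselves below 5 FPKM in the control column. For each locus the pooled heat shock value was above that of every single heat shock library, such as 219.7 against at most 121.7 FPKM for HSPD1. The pooled values are thus not averages of the library values given above. The ratio for HSPD1 was 4.24 here and 2.06 between the means of the libraries, so that the ratios cannot be set beside the fold changes above. The table states no spread, and these values were not tested.

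Other genes of mitochondrial protein quality control, a list of 25 that held cochaperones, inner membrane proteases, processing peptidases and scaffolds, was read in the same way. Of these, 23 were tested and 0 were called on either scale with limma, 1 had an unadjusted p-value under 0.05 as deposited (PMPCA) and 0 scaled. The scaled log2 fold changes had a median of 0.05 and ran from -0.56 to 1.19. The highest belonged to PMPCA (1.19 ± 0.73), a subunit of the protease that removes import signals, which was listed at 0 in control 1, and to PHB2 (1.11 ± 0.79), a prohibitin of the inner membrane, which had 389.3 scaled FPKM in heat shock 1 and 33.5 to 63.5 in the other libraries. The lowest belonged to CLPB (-0.56 ± 0.37), a disaggregase, and XPNPEP3 (-0.39 ± 0.34), an aminopeptidase (SE, n = 3). With transcripts weighted by length these extremes were smaller, with 0.73 for PMPCA, 0.48 for PHB2 (105.4 FPKM in heat shock 1), -0.25 for CLPB and -0.37 for XPNPEP3. The only gene whose scaled groups did not overlap was PMPCB, the partner of PMPCA, with 5.34 to 5.81 FPKM in the controls and 6.12 to 11.4 in heat shocked cells, and its limma adjusted p was 0.907. PHB1, the partner of PHB2, had 48.3 to 55.1 scaled FPKM in the controls and 52.5 to 55.6 in heat shocked cells.

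Of 5 regulators of the mitochondrial and cytosolic responses, 4 were tested and 0 were called, and none had an unadjusted p-value under 0.05 in limma. ATF4, the transcription factor of the integrated stress response, was abundant and had 322.1, 296.8 and 319.8 scaled FPKM in the controls and 316.5, 303.8 and 320.0 in heat shocked cells. HSF1, the heat shock factor, had a mean of 10.8 ± 2.92 scaled FPKM in the controls and 14.7 ± 12.1 in heat shocked cells (SD, n = 3), with 1 high library, heat shock 1 (28.7). This direction rested on how its transcripts were summed: weighted by length it had 17.3 ± 15.6 and 8.54 ± 0.87 (SD, n = 3), with control 1 as the high library (35.3). CEBPB had 4.10 ± 0.22 and 3.83 ± 0.90 scaled FPKM (SD, n = 3). DDIT3 (CHOP) was listed at 0 in 4 of the 6 libraries, with 6.41 scaled FPKM in control 3 and 7.69 in heat shock 3, and ATF5 was listed above 0 in control 2 alone, with 3.83 scaled FPKM.

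Among the 2966 genes averaging 10 FPKM or more, those whose scaled log2 values over the 6 libraries were most like HSPD1 were DNAJC7 (Pearson r = 0.965), EIF2S2 (0.953), RPL14 (0.946), AAMDC (0.942) and ZIC2 (0.931). These values are a description over 6 libraries of a gene that spanned only 1.45-fold after scaling. Of the members at this level, LONP1 was the most like HSPD1 (0.777). HSPE1, which shares the promoter, had an r of -0.715, with its highest value in control 2, where HSPD1 had its lowest. TRAP1 (-0.76) and GRPEL1 (-0.702) had an r of similar size. These r used summed transcripts, with 263.9 scaled FPKM for HSPE1 in control 2, against 185.8 FPKM with transcripts weighted by length. No r was computed with that weighting.

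Single-exon transcripts without a strand were counted in the introns of each member and in the 5000 bases past its end, since the libraries differed in their number. In introns, LONP1 had between 2 and 7 in every library and TRAP1 15 in control 2, and the members with at least 1 were 2, 4 and 3 in the controls and 1, 3 and 5 in heat shocked cells. Over 12986 tested genes, at least 1 was found in 35.02% to 53.1% of the genes of a control library and in 32.6% to 46.9% of those of a heat shock library. Past the end, 1, 2 and 1 members had at least 1 such transcript in the controls and 4, 4 and 3 in heat shocked cells. Those of heat shock 3 were CLPP, HTRA2 and GRPEL1. Heat shock 1 and 2 each had such a transcript for CLPX, HSPE1, GRPEL1 and HSPA9, with 3.45 to 10.3 FPKM times kb, and 3 of these genes had none in the controls, the exception being GRPEL1, and none in heat shock 3. In these 2 libraries, 14.5% and 21.2% of all tested genes had such a transcript past their end, against 24.4% to 48.2% in the controls and 42.7% in heat shock 3. These counts are a description, and the part of such transcripts in the values of the members was not tested.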

How the data were processed

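Per the labels, the authors used FastQC 0.10.1 for quality control, Trimmomatic 0.3.0 for trimming, TopHat2 for alignment to hg19, and Cufflinks 2.0.2 for assembly. They deposited 1 assembly per library with an FPKM for each transcript, and a Cuffdiff table with 1 pooled FPKM per group, whose own fold changes were not used. The files hold no counts. Groups came from the sample labels. The members and lists were chosen with earlier results of these data known.

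FPKM was summed per gene and library over annotated and assembled transcripts (96.7% of 40803 annotated transcripts were named through RefSeq). Where Cufflinks grouped an assembled transcript with several genes, it was given to the only one whose exons it overlapped. Genes averaging 1 FPKM or more (13162) were tested in limma 3.58.1 (R 4.3.3; lmFit, eBayes with a trend) on log2(FPKM + 1), a scale that understates the change of low genes, with Benjamini-Hochberg adjustment over all of them and a call at an adjusted p-value under 0.05, as deposited and scaled (median of ratios over genes above 10 FPKM). The scripts were tested on simulated data. Alternatives were another pseudocount, other scalings and minimums, no trend, annotated transcripts alone, the replicate number as a block, and each library left out. Length weighting and leaving out transcripts of several genes were chosen after seeing the data. The genes named were all members, chosen genes of the lists, the 2 highest and 2 lowest of the quality control list, and the 5 most like HSPD1. Of the markers of other cells, 1 is not reported here.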

Additional observations from a re-analysis of the deposited data

Results flagged for a closer look

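HTRA2 had a pooled value of 5.80 FPKM after heat shock and 1.63 FPKM for the controls in the table of loci that the authors deposited, while both of its annotated transcripts were listed at 0 FPKM in all 6 assemblies. It was singled out because the table, which none of the tests used, held a signal where the libraries held none.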

How the results depend on the processing

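No member was called under any alternative, as deposited or scaled, and 0 genes passed an adjusted p-value under 0.05 after scaling except 1 higher under median-of-ratios factors. As deposited, the genes called higher numbered 1 under median-of-ratios factors, without a trend or on annotated transcripts alone, and 0 under an equal total per library (TPM), the common factor or no minimum. Those called lower numbered 0 under all of these and with a minimum of 10 FPKM, and 2 with length weighting. Leaving out 1 library gave 3 to 7 genes higher and 2 to 4 lower, and the unadjusted p-value 262 and 223 as deposited and 98 and 328 scaled. With the replicate block, 10 genes were higher and 5 lower as deposited. Between samples of the same replicate number, the deviations from the group means had correlations of -0.392 to 0.0288. These cannot decide whether the samples were paired, since other differences between the libraries enter the deviations, and the sample labels do not state it. The block changed no other count.

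Signs of log2 fold changes that passed no test turned, also for values far from 0. The deposited 0.83 of GRPEL1 became -0.0099 under the common factor, where the deposited fit is the scaled fit itself. The scaled -0.70 of TRAP1 became 0.65 on annotated transcripts alone, which leave out its assembled transcript in control 2. The cause of the turns was not otherwise tested. Deposited values were below 0 under median-of-ratios factors for TRAP1 (-0.42) and CLPP (-0.14), under TPM for HSPE1 (-0.10), HSPA9 (-0.018), TRAP1 (-0.58) and CLPP (-0.30), and under the common factor for HSPE1 (-0.22), HSPA9 (-0.14), GRPEL1 (-0.0099), TRAP1 (-0.70), LONP1 (-0.055), CLPP (-0.41) and YME1L1 (-0.046). Scaled values were above 0 under median-of-ratios factors for HSPE1 (0.066), HSPA9 (0.14), GRPEL1 (0.26), LONP1 (0.20) and YME1L1 (0.20), under TPM for GRPEL1 (0.11), LONP1 (0.053) and YME1L1 (0.057), and for GRPEL1 with the factor over genes above 5 FPKM (0.018). On annotated transcripts alone they were 0.47 for HSPE1, 0.27 for GRPEL1, 0.65 for TRAP1, 0.86 for CLPP, 0.061 for YME1L1 and -0.072 for CLPX, and HSPE1 was at 0.46 with assembled transcripts of several genes counted to none.

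Leaving out each library in turn moved the deposited values of TRAP1 from -0.23 to 0.93 and of CLPP from -0.0023 to 0.97. It moved the scaled values of HSPD1 from -0.086 to 0.18, of HSPA9 from -0.37 to 0.18, of GRPEL1 from -0.028 to 0.022, of LONP1 from -0.10 to 0.027 and of YME1L1 from -0.11 to 0.079. Among the log2 ratios, the ranges were -0.51 to 0.085 for HSPE1/HSPD1, -0.21 to 0.41 for GRPEL1/HSPA9, -1.24 to 0.38 for TRAP1/HSPA9 and -0.15 to 0.16 for YME1L1/LONP1. HSPE1/HSPD1 was 0.43 on annotated transcripts alone and 0.43 with assembled transcripts of several genes counted to none, TRAP1/HSPA9 0.74 and CLPX/CLPP -1.13 on annotated transcripts alone, and GRPEL1/HSPA9 -0.029 and YME1L1/LONP1 -0.054 with length weighting. No file gives counts. The precision of low values can be read from the interval that Cufflinks gave for each transcript and from the spread of the libraries. For the annotated transcript of CLPX, the interval as deposited was 0.392 to 0.933 FPKM in control 2 and 0.439 to 1.27 FPKM in control 3. The limma tests used the spread of the libraries and not these intervals.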
